A study of Mus musculus with 4 samples.

Results

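The genes of fatty acid uptake and of the lipoprotein lipase system were followed in RNA from the whole mammary fat pad (MFP) of young and aged female mice. The 10 genes, chosen by name, were Lpl, Lmf1, Gpihbp1, Angptl4, Angptl8, Cd36, Slc27a1, Acsl1, Fabp4 and Fabp5, and each was found on 1 of the 55487 gene rows of the count table. The study sequenced 2 MFP samples of aged (14 months) and 2 of young (8 weeks) mice of the c57bl/6j strain. The labels call the samples biological replicates 1 and 2 of each age. Nothing in the labels says how many animals went into a sample, so a p-value here measures the spread between these samples. The tissue was lysed whole, without isolating adipocytes, and ribosomal RNA was removed before library preparation.

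Adipocytes store fatty acids that reach them in the blood as triglyceride inside lipoproteins. Lipoprotein lipase (Lpl) is made by adipocytes and muscle, folds with the help of lipase maturation factor 1 (Lmf1), and is carried to the capillary wall by Gpihbp1, where it releases fatty acids from triglyceride. Angptl4 and Angptl8 belong to the angiopoietin-like family that restrains the enzyme according to feeding. The released fatty acids cross the membrane with the help of Cd36 and the transport protein Slc27a1, are coupled to coenzyme A by Acsl1, and are carried through the cytosol by Fabp4 and Fabp5.

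The RNA of this system lay on both sides of the young levels in aged MFP. With TMM scaling, Cd36, Fabp4 and Lpl were at higher levels in both aged than in both young libraries, while Angptl4, Slc27a1, Acsl1 and Lmf1 were lower in both aged libraries, and Gpihbp1, Angptl8 and Fabp5 overlapped. Fold changes of aged over young ran from 0.520 for Angptl4 to 1.83 for Angptl8. By the quasi-likelihood test of edgeR, adjusted over all genes after Benjamini-Hochberg, 0 of the 10 members and 0 of the 22485 genes tested (0%) had an adjusted p under 0.05. The members with an unadjusted p under 0.05 numbered 0 as well, where 7.24% of all genes tested were higher and 3.31% lower in aged MFP. DESeq2 called 0 members as well, against 3.09% of genes called higher and 0.666% called lower.

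Both aged libraries were above both young libraries in 3 of the 10 members, as in 23.3% of all genes tested, and below them in 4, as in 22.8% of all genes. The median log2 fold change was -0.10 over the members and -0.04 over all genes tested. Together the members took 0.943% and 0.825% of all counts in aged MFP, against 0.969% and 0.984% in young MFP, so the aged libraries spent a slightly smaller share of their counts on them. With libraries scaled by total counts alone, the members' median log2 fold change was -0.27. That of all genes tested was -0.22, so a smaller share was not particular to the members. Total counts ran from 68803304 to 98402403 per library, and the smallest count of any member in any library was 2475, for Lmf1 in young replicate 2.

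**Figure D1:**
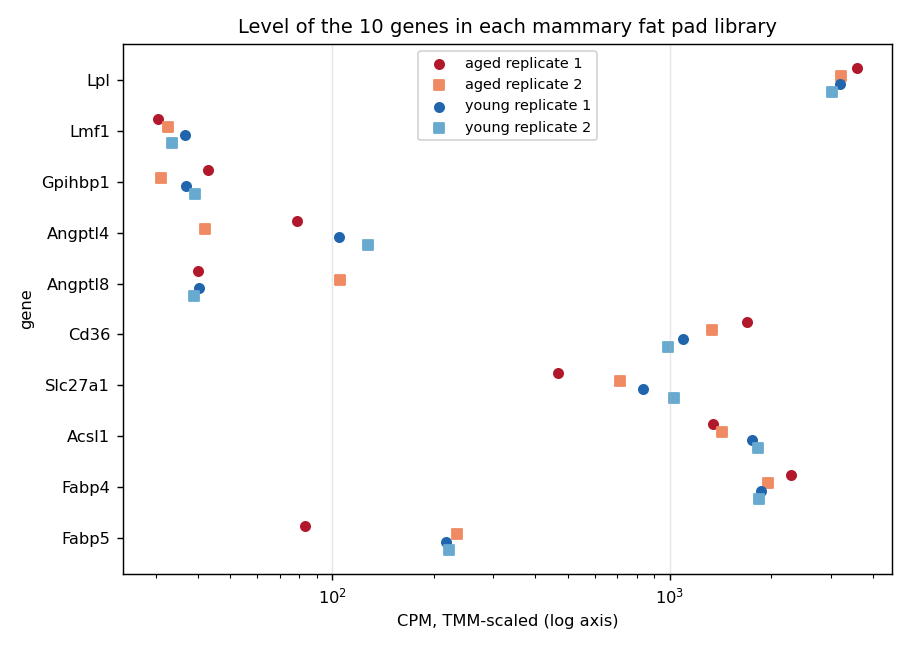
Level of each gene in each library, in CPM (reads relative to the TMM-scaled total of the library), on a log axis, with red points for aged and blue points for young libraries (circles, replicate 1; squares, replicate 2). The aged points lie to the left of the young points for Angptl4, Slc27a1, Acsl1 and Lmf1 and to the right for Lpl, Cd36 and Fabp4, while single aged libraries stand apart for Angptl8 (105 CPM) and Fabp5 (83.1 CPM).

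For 5 members RefSeq's table of gene starts (GRCm38.p6) gives the sequence before the start. It is shown for Cd36, higher in both aged libraries, and for Slc27a1 and Acsl1, lower in both, because these genes act one after another on the same fatty acid and their aged levels lay on opposite sides of the young ones. Each line holds the 250 bases before 1 start, on the gene's own strand and 5′ to 3′, for Cd36 at chr5:17835897-17836146 (minus strand), for Slc27a1 at chr8:71568621-71568870 (plus strand) and for Acsl1 at chr8:46470787-46471036 (plus strand). Capitals mark the letters AGGTCA (the hexamer that nuclear receptors read), CCAAT, or GGGCGG (a GC box), on either strand.
Cd36: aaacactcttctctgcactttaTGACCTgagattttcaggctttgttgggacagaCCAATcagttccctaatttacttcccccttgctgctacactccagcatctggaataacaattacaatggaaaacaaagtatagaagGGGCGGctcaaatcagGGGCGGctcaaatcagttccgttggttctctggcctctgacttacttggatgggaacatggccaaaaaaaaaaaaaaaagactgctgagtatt
Slc27a1: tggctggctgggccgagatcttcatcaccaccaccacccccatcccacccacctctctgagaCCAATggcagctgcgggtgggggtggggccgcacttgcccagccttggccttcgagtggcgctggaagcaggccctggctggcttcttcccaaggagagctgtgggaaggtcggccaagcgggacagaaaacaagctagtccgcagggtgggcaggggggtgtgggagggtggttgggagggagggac
Acsl1: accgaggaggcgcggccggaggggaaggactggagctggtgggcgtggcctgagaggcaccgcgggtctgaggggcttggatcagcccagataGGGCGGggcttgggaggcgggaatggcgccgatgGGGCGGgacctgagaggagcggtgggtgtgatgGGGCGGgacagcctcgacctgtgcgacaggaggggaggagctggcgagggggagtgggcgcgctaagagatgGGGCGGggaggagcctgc
The Acsl1 stretch had 72.0% G and C and 4 copies of GGGCGG, letters that 32.7% of the 32851 starts in the table carry within the same distance. The Cd36 stretch, which lies inside the Cd36 gene model because longer transcripts begin further upstream, had 43.2% G and C, 2 copies of GGGCGG, 1 of CCAAT (33.8% of all starts) and 1 of AGGTCA (14.0% of all starts). Slc27a1 had 66.4% G and C and CCAAT once. A direct repeat of AGGTCA with 1 base between the copies, the kind of site bound by PPAR with RXR, was in 0 of the 5 stretches and in 0.0335% of all starts. TATAAA (12.4% of all starts) and CACGTG (6.02%) were in 0 of the 5 as well. These are matches of letters in a short window, the table lists 3 starts for Slc27a1 and 2 for Acsl1, and the counts do not tell which start was used. The Cd36 start shown lies 179 bases from the nearest principal transcript start of GENCODE M21. That distance is 11 bases for Slc27a1 and 0 for Acsl1.

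Since the tissue was not dissociated, the markers of the cell types it can hold were read first, and fewer cells of a type and less RNA per cell cannot be told apart in these libraries. All 10 white adipocyte markers were present, and their summed level was 10819 to 14848 CPM in aged and 8601 to 8753 CPM in young MFP. In 9 of these 10 markers both aged libraries were above both young ones, and the list had a median of 0.50 on the log2 fold scale. It was led by the hormone leptin (Lep, 1.20, edgeR adjusted p = 0.404, DESeq2 adjusted p = 0.0162), while resistin (Retn) had -0.05. Skeletal muscle, which also makes lipoprotein lipase and takes up fatty acids, was represented by 12 markers that summed to 43232 and 70332 CPM in the aged and 11371 and 15814 CPM in the young libraries. All 12 had no overlap between the ages, and log2 fold changes ran from 1.31 for Mylpf, a myosin light chain, to 3.86 for myoglobin (Mb). With DESeq2, 9 of them were called (Acta1, Ckm, Myh4, Tnnt3, Tnnc2, Actn3, Atp2a1, Ttn and Mb) against 0 with edgeR.

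Blood endothelium, the site of Gpihbp1, summed to 877 to 1171 CPM in aged and 818 to 969 CPM in young MFP over 10 markers, of which Vwf had the highest log2 fold change (0.97) and Cldn5 the lowest (-0.46). Macrophage markers, 10 genes of cells that also use Cd36 and Fabp4, summed to 358 and 452 CPM in the aged and to 588 and 256 CPM in the young libraries. Of these 10 markers 9 had a positive log2 fold change, 5 had both aged libraries above both young ones, and the median was 0.54. Mrc1 was highest in that list at 0.81, and Lyz2 lowest at -1.12, with 374 CPM in young replicate 1 against 45.9 CPM in young replicate 2, most of the sum in young replicate 1. Lymphocyte markers summed to 578 CPM in young replicate 1 and to between 3.18 and 59.0 CPM in the other libraries, with log2 fold changes from -4.15 (Cr2) to -2.60 (Ms4a1) and overlap between the ages in all 7. Brown adipocyte markers summed to 121 and 150.3 CPM in aged and 98.1 and 103 CPM in young MFP, 1.35 times as much in aged MFP. The 6 markers did not move together, as 3 had both aged libraries above both young ones and 2 had both below. Ucp1 was lowest at -0.78 and Elovl3 highest at 1.95 on the log2 fold scale. Cox8b, called by DESeq2 (0.88, adjusted p = 0.00970), was the largest part of the aged sums. It was at 53.7 and 66.1 CPM in the aged and 32.7 and 32.5 CPM in the young libraries. The skeletal muscle markers were also higher in both aged libraries, and the part of muscle in the Cox8b value was not tested. Epidermis, a tissue that uses Fabp5, was near absent, with a sum of 11.8 and 8.79 CPM in aged and 7.79 and 8.50 CPM in young MFP, Krt2 and Flg2 at 0 counts in every library, Krt10 at -0.03 and Ivl at 4.33 (DESeq2 adjusted p = 0.000786). Mammary epithelium summed to 2581 to 2809 CPM in aged and 1494 to 3921 CPM in young MFP, with Ltf at 0.66, Wap at 0 counts throughout, and Csn2 at 0 counts in both aged and 12 and 17 counts in the young libraries. What part each of these cell types had in the members' values was not tested. With the muscle markers and the mitochondrially encoded genes left out of the fit, the members' median log2 fold change was -0.09. The members' own counts stay the same in that fit, whatever cells they came from. It therefore cannot tell what part muscle had in them.

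**Figure D2:**
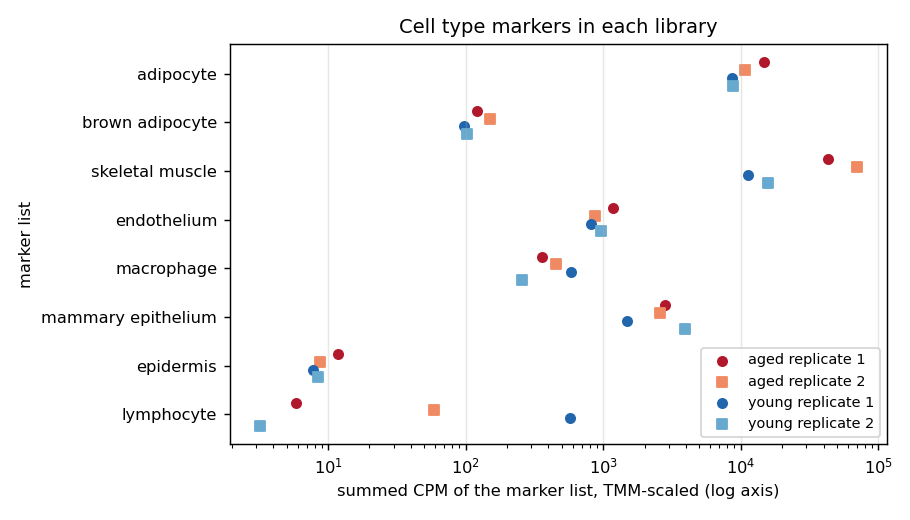
Summed CPM of each list of cell type markers in each library, on a log axis, with colours for age and shapes for replicate number. Both aged libraries lie above both young ones for skeletal muscle (43232 and 70332 against 11371 and 15814 CPM), white adipocytes, brown adipocytes (121 and 150.3 against 98.1 and 103 CPM) and epidermis (11.8 and 8.79 against 7.79 and 8.50 CPM), and young replicate 1 stands apart in lymphocyte markers (578 CPM). Of the 6 brown adipocyte markers in that sum, 2 were lower in both aged libraries, Ucp1 among them. Cox8b was the largest part of the aged sums, and the part of muscle in its value was not tested.

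The lipase and the proteins that mature and anchor it were close between the ages. Lpl (ENSMUSG00000015568, chromosome 8 of GRCm38, 68880491 to 68907448, plus strand) was at 3603 and 3229.8 CPM in the aged and 3198 and 3025 CPM in the young libraries. All 4 libraries lay close together, and aged replicate 2 was just above young replicate 1. The log2 fold change was 0.13 (standard error, SE, of 0.30, edgeR adjusted p = 0.860), and with libraries scaled by total counts alone it was -0.04.

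Lmf1 (ENSMUSG00000002279, chromosome 17, 25579085 to 25662826, plus strand), which resides in the endoplasmic reticulum, was at 30.5 and 32.7 CPM in aged and 36.6 and 33.5 CPM in young MFP. Both aged libraries were below both young ones, by a small margin, with a log2 fold change of -0.15 (SE 0.15, edgeR adjusted p = 0.690). Gpihbp1 (ENSMUSG00000022579, chromosome 15, 75596628 to 75599481, plus strand), the protein of capillary endothelium that holds the lipase, was at 42.8 and 31.2 CPM in aged and 36.9 and 39.2 CPM in young MFP. The young libraries lay between the aged ones, and the log2 fold change was -0.04 (SE 0.21, edgeR adjusted p = 0.944). Without aged replicate 2 it was 0.17 and without young replicate 2 it was 0.01.

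Against other RNA of the same library, which does not depend on how libraries are scaled, Gpihbp1 gave 0.474 and 0.470 times the geometric mean count of the endothelium markers in the aged and 0.610 and 0.503 times in the young libraries. Both aged values were below both young ones, a log2 difference of -0.23 (two-sided exact permutation test, p = 0.333, the smallest that 2 samples against 2 allow), which was -0.090 without young replicate 1. Per count of Lpl there were 0.00846 and 0.0101 counts of Lmf1 in aged and 0.0114 and 0.0111 in young MFP. For Gpihbp1 the ratio to Lpl was 0.0119 and 0.00965 in aged and 0.0115 and 0.0130 in young MFP, with overlap.

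Of the inhibitors of the lipase, Angptl4 was lower and Angptl8 higher on average in aged MFP. Angptl4 (ENSMUSG00000002289, chromosome 17, 33773750 to 33781830, minus strand), which is induced by fasting and by fatty acids and inactivates lipoprotein lipase, was at 78.8 and 42.0 CPM in the aged and 104.6 and 127 CPM in the young libraries. Both aged libraries were below both young ones, and aged replicate 2 was the lowest. The log2 fold change of -0.94 (standard error 0.35) was the largest in size among the members, with an unadjusted p of 0.0529 and an adjusted p of 0.479 from edgeR and 0.258 from DESeq2. With each library left out in turn it lay between -1.48 and -0.56.

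Of the 4 genes set against Lpl inside each library, Angptl4 also had the largest difference between the ages in size. Per count of Lpl there were 0.0219 and 0.0130 counts of Angptl4 in aged and 0.0327 and 0.0421 in young MFP. The aged ratios were both below the young ones, with a log2 difference of -1.14 (two-sided exact permutation test, p = 0.333). This ratio leaves library scaling out but not the makeup of the tissue.

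Angptl8 (ENSMUSG00000047822, chromosome 9, 21835510 to 21837347, plus strand), a partner of other angiopoietin-like proteins that rises with feeding and insulin, was at 39.9 and 105 CPM in the aged and 40.2 and 39.0 CPM in the young libraries. Aged replicate 2 stood alone, and the other 3 libraries were nearly equal. The log2 fold change was 0.87 (SE 0.50, edgeR adjusted p = 0.547), and without aged replicate 2 it was 0.01. The gene lies inside Dock6, which is on the other strand and shares no exon with it. Aged replicate 2 thus had the lowest Angptl4 and the highest Angptl8 level of the 4 libraries.

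**Figure D3:**
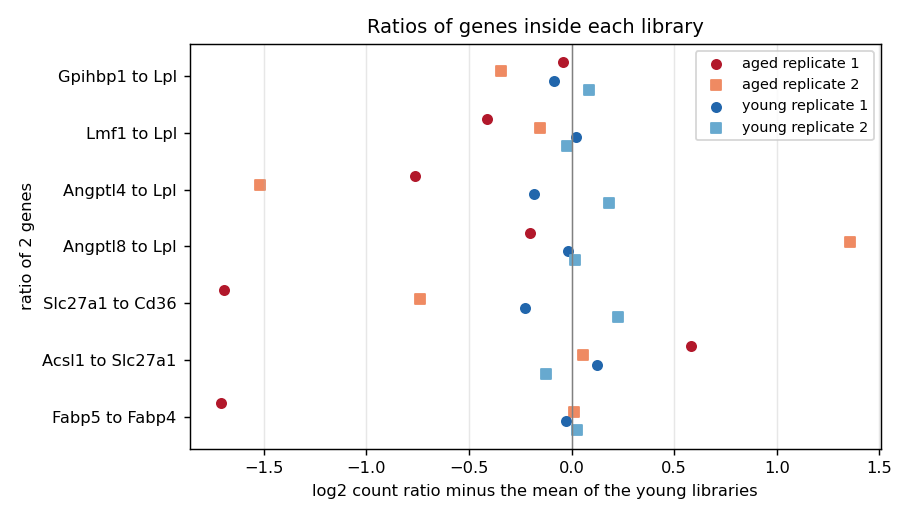
Log2 ratio of the counts of 2 genes inside each library, minus the mean of the young libraries, with colours for age and shapes for replicate number. The aged libraries lie below both young libraries for Angptl4 to Lpl, Slc27a1 to Cd36 and Lmf1 to Lpl, while 1 aged library alone moves away for Angptl8 to Lpl and for Fabp5 to Fabp4.

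Of the proteins of uptake at the membrane, Cd36 was at higher and Slc27a1 at lower RNA levels in both aged libraries. Cd36 (ENSMUSG00000002944, chromosome 5, 17781690 to 17888801, minus strand), a scavenger receptor that binds long-chain fatty acids, was at 1695 and 1334.5 CPM in the aged and 1094 and 990.1 CPM in the young libraries, with no overlap. Its fold of aged over young was 1.45 (log2 0.54, SE 0.25) with an adjusted p of 0.512 from edgeR, and DESeq2 gave an unadjusted p of 0.0308 and an adjusted p of 0.295. Slc27a1 (ENSMUSG00000031808, chromosome 8, 71568882 to 71587302, plus strand), the insulin-responsive fatty acid transport protein of fat and muscle, was at 468 and 715 CPM in the aged and 833 and 1034 CPM in the young libraries. Both aged libraries were below both young ones, with aged replicate 1 lowest. Its log2 fold change was -0.66 (SE 0.30, edgeR adjusted p = 0.510, DESeq2 adjusted p = 0.383).

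Set against each other, Slc27a1 gave 0.276 and 0.536 counts per count of Cd36 in aged and 0.762 and 1.04 in young MFP. The aged ratios were the lower ones in every pairing of an aged with a young library, a log2 difference of -1.21 and the largest in size of the 7 ratios between members (two-sided exact permutation test, p = 0.333). The spread inside an age was also large, at 0.68 (SD, n = 2) in aged and 0.32 (SD, n = 2) in young MFP on the log2 scale.

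Acsl1 (ENSMUSG00000018796, chromosome 8, 46471037 to 46536051, plus strand), the main acyl-CoA synthetase of adipocytes, was at 1348 and 1432 CPM in the aged and 1753 and 1826 CPM in the young libraries. Its libraries fell into a lower aged and a higher young pair. The replicates of an age differed by 0.09 (aged) and 0.06 (young) on the log2 scale, and the ages by -0.36 (SE 0.23, edgeR adjusted p = 0.565, DESeq2 adjusted p = 0.385). With each library left out in turn the difference stayed between -0.41 and -0.32. Acsl1 is overlapped on the other strand by Gm45244, which had 5 counts over all libraries. Counts of Acsl1 per count of Slc27a1 were 2.88 and 2.00 in aged and 2.10 and 1.77 in young MFP and overlapped.

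The cytosolic binding proteins are paralogs that lie near each other on chromosome 3. Fabp4 (ENSMUSG00000062515, 10204088 to 10208576, minus strand), the adipocyte form, was at 2287 and 1956 CPM in the aged and 1865 and 1837 CPM in the young libraries. Both aged libraries were above, at a log2 fold change of 0.20 (SE 0.26, edgeR adjusted p = 0.757). Fabp5 (ENSMUSG00000027533, 10012548 to 10016607, plus strand), a form with wider expression in epithelia, macrophages and fat, was at 83.1 and 234 CPM in the aged and 217 and 222 CPM in the young libraries. Aged replicate 1 stood alone at the bottom, and the other 3 libraries lay close together. The log2 fold change was -0.47 (SE 0.52, edgeR adjusted p = 0.715). It was 0.08 without aged replicate 1 and -1.40 without aged replicate 2, so its direction rested on 1 library.

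Fabp5 gave 0.0363 and 0.120 counts per count of Fabp4 in aged and 0.117 and 0.121 in young MFP. Outside aged replicate 1 this ratio was nearly constant. Transcripts of 3 other genes match Fabp5 at 95% identity or more over at least 100 bases, and the one with most counts, Gm6166, had 226 counts in all libraries together. All 3 together held 0.436% to 0.499% of their joint counts with Fabp5. Lmf1 had 3 and Slc27a1 47 such genes, which held 46.0% to 56.7% and 55.4% to 75.1% of the joint counts. Among them the gene with most counts was Ecsit for Lmf1, with a match of 105 bases, and Atf7ip for Slc27a1, with a match of 119 bases. The merged annotated exons came to 13589 bases for Lmf1 and 5835 bases for Slc27a1. These shares use all counts of the matching genes, wherever in the gene they fell. They are therefore not shares of reads that could have been assigned to the wrong gene. How the counting assigned reads from matching stretches was not tested. The values of Lmf1, Slc27a1 and Fabp5 are uncertain by an amount that was not measured. Fabp4 had 0 such matches.

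Compared per length (CPM per kilobase of merged exons of GENCODE M21), Fabp4 had the highest level of the members at both ages, with means of 473 in aged and 412 in young MFP. Lpl (297) and Cd36 (290.3) followed in young MFP with overlapping libraries, then Acsl1 (171) and Slc27a1 (160.0), which overlapped as well, Fabp5 (61.5), Angptl8 (45.8), Angptl4 (32.8), Gpihbp1 (14.9) and Lmf1 (2.58), whose libraries did not overlap with those of their neighbours. The aged order differed in that Cd36 (422) stood above Lpl (326) and overlapped with Fabp4, and Angptl8 (83.9) stood above Fabp5 (44.4). Angptl8 overlapped in aged MFP with both Slc27a1 (101) and Fabp5, and Angptl4 (17.0) with Gpihbp1 (14.5). Lmf1 (2.32 in aged MFP) had the lowest level at both ages. This order depends on the length used, since merged exons join all annotated transcripts of a gene and can exceed the transcript that is present. They came to 10478 bases for Lpl, 3590 for Cd36 and 4489 for Fabp4, which is the whole span of that gene. In CPM, without division by length, the aged mean of Lpl (3416) was above those of Fabp4 (2122) and Cd36 (1515).

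The white adipocyte markers were themselves higher in aged MFP, so each member was also set against them inside its library. Relative to the geometric mean count of the 10 markers, 8 of the 10 members had both aged libraries below both young ones, as did 55.9% of all genes tested, and 0 members had both above, against 5.23% of all genes. Angptl4 had the largest log2 difference in size at -1.57, from 0.0726 and 0.0532 times the marker mean in aged to 0.166 and 0.203 times in young MFP. Slc27a1 followed at -1.24, Fabp5 at -1.21, Acsl1 at -0.92, Lmf1 at -0.71, Gpihbp1 at -0.62, Lpl at -0.43 and Fabp4 at -0.37. The place of Fabp5 rested on aged replicate 1, since its difference was -0.24 without that library and -2.19 without aged replicate 2. Without aged replicate 1 the differences of Slc27a1, Lmf1, Lpl and Fabp4 were also smaller in size, at -0.71, -0.43, -0.27 and -0.25. Each of these 8 had an exact permutation p of 0.333, the smallest possible (0.5 after Benjamini-Hochberg adjustment over the 18 ratios computed).

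Cd36 overlapped between the ages relative to the markers, at 1.56 and 1.69 times their mean in the aged and 1.74 and 1.58 times in the young libraries (log2 difference -0.03). Angptl8 was at 0.0368 and 0.134 times in aged and 0.0641 and 0.0623 times in young MFP. With libraries scaled to the markers in edgeR's fit, Lpl, Cd36 and Fabp4 had log2 fold changes of -0.42, -0.03 and -0.36, below 0 where TMM scaling gave values above 0. The median of all genes was -0.58 under that scaling, so that relative to this median the 3 genes were still on the higher side, and the members' median of -0.65 differed from it by -0.07. Of the 10 members, Angptl4 (unadjusted p = 0.000703, adjusted p = 0.113) and Slc27a1 (unadjusted p = 0.0212, adjusted p = 0.207) had an unadjusted p under 0.05 in edgeR's fit with this scaling. In the same fit 4370 of all 22485 genes tested had an unadjusted p under 0.05 in either direction, so passing it was common.

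**Figure D4:**
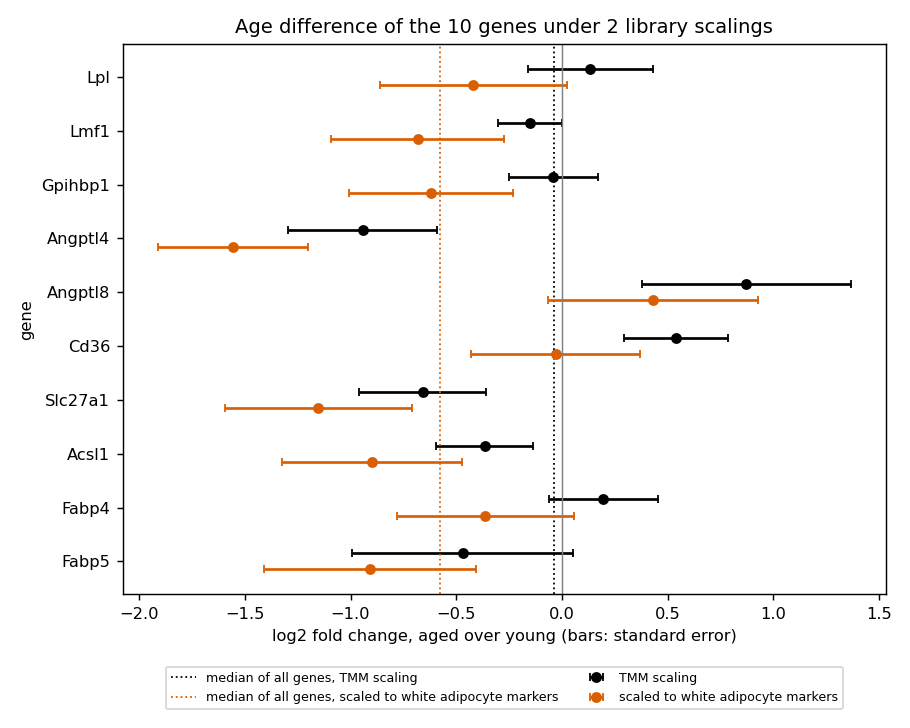
Log2 fold change of aged over young for each gene in edgeR's fit with TMM scaling (black) and with libraries scaled to the white adipocyte markers (orange), with bars for the standard error and dotted lines for the median of all genes under each scaling. Angptl4, Slc27a1 and Acsl1 lie left of the dotted line of their scaling and Cd36 and Angptl8 right of it, under both scalings.

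Other genes that act on lipoprotein lipase were followed in a list of 17, of which 15 had enough counts to be tested. The activator Apoc2 and Apoa5 were at 0 counts in every library. In this list 0 genes were called by edgeR, and 2 were higher and 0 lower at an unadjusted p under 0.05. The median log2 fold change was 0.08 (-0.50 with libraries scaled to the white adipocyte markers, where that of all genes tested was -0.58). Vldlr, a receptor of triglyceride-rich lipoproteins that aids their capture beside the lipase, was at 119.7 and 153 CPM in the aged and 65.9 and 67.4 CPM in the young libraries. Both aged libraries were above both young ones, and the log2 fold change was 1.03 (SE 0.17, edgeR adjusted p = 0.360, DESeq2 adjusted p = 0.00207). The proprotein convertase Pcsk6, whose family cleaves lipoprotein lipase and Angptl proteins, had the highest value at 1.14 (edgeR adjusted p = 0.431), and the endothelial lipase Lipg the lowest at -0.53 (adjusted p = 0.780).

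Relatives of the uptake genes showed the largest values among the lists of related genes. Of 25 listed, 19 were tested, with 0 called by edgeR, and 3 higher and 2 lower at an unadjusted p under 0.05. Their median was 0.18 (-0.40 with the adipocyte marker scaling, where that of all genes tested was -0.58). Fabp3, the binding protein of heart and skeletal muscle, was at 23.3 and 5.72 CPM in the aged and 1.46 and 0.989 CPM in the young libraries, a log2 fold change of 3.56 (SE 0.81, edgeR adjusted p = 0.404, DESeq2 adjusted p = 9.16e-05). Acsl6, a synthetase of brain and muscle, was at 3.06 and 5.18 CPM in the aged and 0.781 and 0.515 CPM in the young libraries, a log2 fold change of 2.66 (SE 0.46, edgeR adjusted p = 0.360, DESeq2 adjusted p = 1.72e-05). Both had no overlap between the ages, in the same libraries in which the skeletal muscle markers were 4.18 times as high in aged as in young MFP, and the part of muscle in these values was not tested.

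Slc27a6, a transport protein related to Slc27a1, was at 1.04 and 1.12 CPM in the aged and 2.32 and 2.67 CPM in the young libraries. Like Slc27a1 it was lower in both aged libraries, with a log2 fold change of -1.20 (SE 0.30, edgeR adjusted p = 0.409, DESeq2 adjusted p = 0.0258). Got2, a mitochondrial transaminase also known as a fatty acid binding protein of the plasma membrane, had a log2 fold change of 0.61 (edgeR adjusted p = 0.374, DESeq2 adjusted p = 0.0375).

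Of the 10 transcription factors known to act on these genes, 9 had a positive and 1 a negative log2 fold change, with a median of 0.32. With the adipocyte marker scaling that median was -0.25, where that of all genes tested was -0.58. With an unadjusted p under 0.05 came 3 higher and 0 lower factors, and edgeR called 0. Rxra, the partner of the PPARs on DNA, had the highest value, at 223 and 225 CPM in the aged and 119 and 140 CPM in the young libraries (log2 fold change 0.78, SE 0.15, edgeR adjusted p = 0.370, DESeq2 adjusted p = 0.0128). Nr1h3, the liver X receptor of fat and liver, had the lowest at -0.10 (edgeR adjusted p = 0.737). Among 7 genes known to respond to fatty acids through PPARs, as Angptl4 does, Hilpda, a lipid droplet protein, had the lowest value at -0.65 (edgeR adjusted p = 0.497). The list had a median of 0.35 (-0.15 with the adipocyte marker scaling) and 0 genes with an unadjusted p under 0.05.

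**Figure D5:**
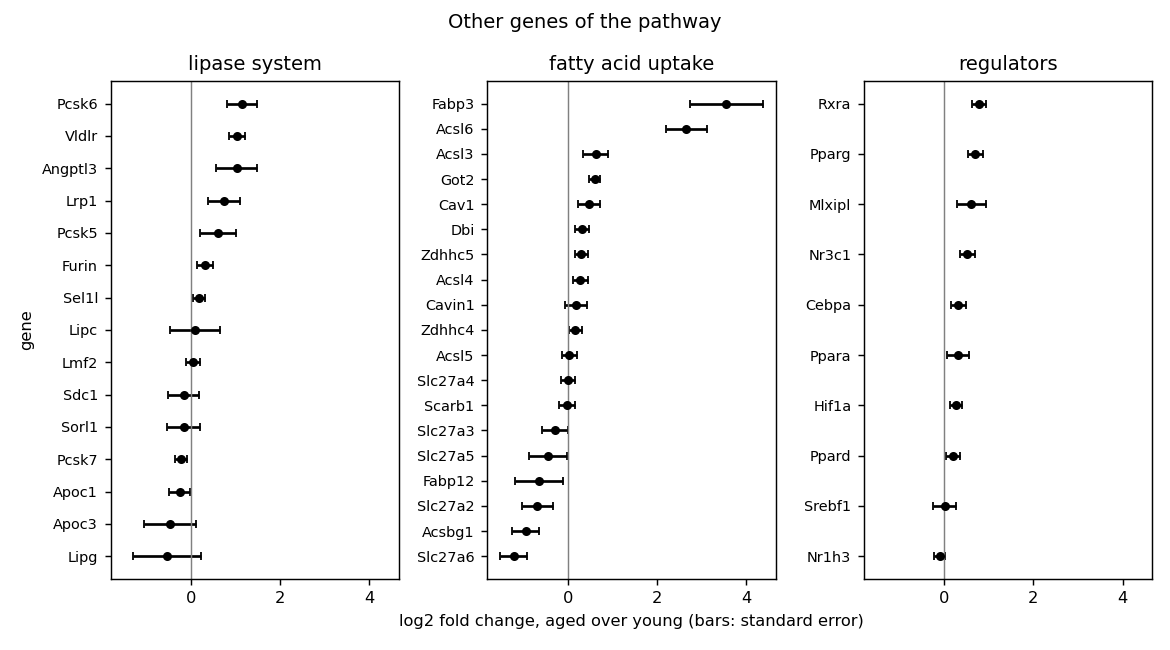
Log2 fold change of aged over young with TMM scaling, with bars for the standard error, for the tested genes that act on lipoprotein lipase, belong to the uptake families or regulate them. Fabp3 (3.56) and Acsl6 (2.66) lie furthest to the right and Slc27a6 (-1.20) furthest to the left, and 9 of the 10 regulators lie right of 0. With the adipocyte marker scaling the median of the regulators is -0.25, where that of all genes tested is -0.58.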

How the data were processed

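Total RNA of whole MFP was sequenced in 2 aged and 2 young samples with a strand-specific kit after ribosomal RNA depletion. The table that the authors deposited holds raw read counts, with genes as rows and 1 column per sample, neither normalized nor filtered. The submitters' processing notes name featureCounts, R 3.6.1 and the builds hg38 and GRCm38, with no role given to each. The aligner, annotation and strand setting are not given in the sources used here. With strand ignored, reads of Acsl1 and Gm45244 could not be told apart.

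The 22485 genes kept by filterByExpr were tested in edgeR 4.0.16 (R 4.3.3, with limma 3.58.1) through glmQLFit and glmQLFTest after TMM scaling, with age as the only term and Benjamini-Hochberg adjustment over all genes tested, at 0.05. DESeq2 (1.42.0), which the study names, was run as an alternative with default settings on all genes with a count. CPM values use TMM-scaled library totals. Standard errors were taken as |log2 fold change| over the root of the F statistic. Ratios inside a library were compared by two-sided exact permutation tests. For ratios to marker means, 0.5 was added to each count. Totals were 68803304 to 98402403 counts, at which 3 counts are at most 0.0407 CPM. Reads amplified by PCR are not independent molecules, so this floor covers counting error only.

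The members and the gene lists were chosen with earlier results of these data known. Besides the members, the genes named are the highest and lowest of each list, any list gene called by edgeR or DESeq2, the 3 genes most like Lpl and most like Angptl4, and genes at 0 counts. A list gene that this rule names is not reported here. Gene positions and exon lengths come from GENCODE M21 (55227 of 55487 identifiers found), and sequences from RefSeq on GRCm38.p6. Alternatives covered scaling, filters, tests, the replicate number as a block and leaving out each sample. The code was tested on simulated counts.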

Additional observations from a re-analysis of the deposited data

How the results depend on the processing

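No member was called under any of the 16 alternatives (0 of 10 each), although over all genes edgeR's likelihood ratio test called 490 genes, DESeq2 852 and the quasi-likelihood test with libraries scaled to white adipocyte markers 33, where TMM scaling gave 0 calls and 2371 genes at an unadjusted p under 0.05. Angptl4, Slc27a1, Acsl1 and Lmf1 stayed negative and Angptl8 positive in every alternative. Relative to the median of all genes, which was -0.22 with total counts only and -0.58 with adipocyte marker scaling, the members' median lay between -0.11 and 0.03. With total counts only, 2 members were lower at an unadjusted p under 0.05, where 2752 of 22485 genes passed in either direction. In 1 member both aged libraries were above both young ones, and Lpl was at -0.042. The medians of the regulators and of the fatty acid response genes were then 0.14 and 0.15. With adipocyte marker scaling, 2 members were lower at an unadjusted p under 0.05, where 4370 of 22485 genes passed in either direction. Both aged libraries were above both young ones in 0 members and below them in 8. Relative to the markers inside each library, 5.23% of all genes tested were above and 55.9% below. The members' median was -0.65, and Lpl, Cd36 and Fabp4 were at -0.42, -0.029 and -0.36. The medians of the lipase, uptake, regulator and response lists with this scaling were -0.50, -0.40, -0.25 and -0.15. This scaling divides by a level that was higher in the aged libraries, which by construction lowers the log2 fold change of every gene. At an unadjusted p under 0.05, 2 members were lower without a filter and 1 with at least 10 counts in every sample. By the likelihood ratio test 1 was lower, and DESeq2 had 1 higher and 1 lower. Of all genes, 2660 of 34805 passed without a filter and 2172 of 20244 with at least 10 counts in every sample. By the likelihood ratio test 2155 of 22485 passed, and by DESeq2 3120 of 34805. The cause of these differences between settings was not tested.

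With a library left out in turn, the aged lay above the young libraries in 4 to 5 members. A lone library separates from the other age more easily than a pair does, so this count cannot be set beside that with all libraries. Gpihbp1 ranged from -0.30 to 0.17 and Fabp5 from -1.40 to 0.080. The medians ranged from 0.060 to 0.29 for the lipase list, 0.18 to 0.39 for the regulators and 0.065 to 0.36 for the response genes. Log2 differences of ratios ranged from -0.20 to 1.35 for Angptl8 to Lpl, -1.71 to 0.012 for Fabp5 to Fabp4, -0.78 to 1.08 for Angptl8 to the adipocyte markers, -2.19 to -0.24 for Fabp5 to them and -0.10 to 0.043 for Cd36 to them. Fewer samples then carry each age, and the lone sample of an age is assumed to vary like the others.

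Same-numbered samples did not deviate together (correlation -0.48 across genes), so the numbers were not taken as pairs. In edgeR's fit with a replicate block, the members' median was -0.10 and 0 members were called. A crossed block, which pairs the differently numbered samples and was chosen after seeing the data, called 0 of all genes. It had 1 member lower at an unadjusted p under 0.05. With that block 2494 of 22485 genes passed in either direction.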

Other observations

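Among 4383 other genes with a mean of at least 50 CPM, those whose log2 CPM, centred over the 4 libraries, was most like that of Lpl were Nufip2, Bbx and Klf6, with root mean square differences of 0.0127, 0.0153 and 0.0178. Lpl varied little, and 533 genes lay within 0.1 of it, so this likeness is common. For Angptl4 the nearest were Adam12, a membrane metalloprotease, and the fibrillar collagen genes Col3a1 and Col5a2, at 0.0939, 0.149 and 0.175, with 1 gene within 0.1. Col3a1 was at 1009 and 696 CPM in the aged and 1702 and 2012 CPM in the young libraries, in the same order of libraries as Angptl4. Its log2 fold change was -1.12 (SE 0.30, edgeR adjusted p = 0.417, DESeq2 adjusted p = 0.0137). With 4 libraries many genes share an order, and nothing on shared control follows from it.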
